A study of Mus musculus with 2 samples.

Results

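The miRNAs miR-9, miR-92b and miR-135a are known from progenitor cells of the embryonic brain and are made from 6 mouse genes, Mir9-1, Mir9-2, Mir9-3, Mir92b, Mir135a-1 and Mir135a-2. They were chosen by name, from what is known of them and by no rule on their counts, but with earlier results of these libraries known. The count tables list 1973 genes, 5 of the 6 among them. Mir9-1 is not listed under its own identifier, and its position is covered by a hairpin annotated on the other strand, described below. The libraries come from forebrain tissue of mouse embryos of strain B6NCrl, of both sexes pooled, at 10.5 days of development, healthy, and the labels name no treatment and no altered gene. They form 1 group of 2 libraries of small RNA with fragments shorter than 30 nt. Replicate 1 was made from a pool of 69 embryos and replicate 2 from a pool of 51, so no value belongs to a single embryo. The labels call them biological replicates from separate biosamples. With 1 group there is no contrast of conditions, and the data answer how abundant each gene's reads are and how well the pools agree.

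A miRNA gene is transcribed as a longer RNA that folds into a hairpin, and enzymes cut out a mature strand from its 5′ arm and often another from its 3′ arm. The mature strand guides a silencing complex to messenger RNAs, mainly through its seed, the bases near its 5′ end, so miRNAs with the same seed share many targets. miR-9 is a classic brain miRNA that restrains progenitor factors such as Hes1 and Nr2e1 and tunes the timing of neurogenesis. miR-92b is known from neural stem cells, where it limits Eomes, a factor of intermediate progenitors. miR-135a-2 is known from the early brain for a circuit with Lmx1b.

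The mature sequences are given first because they set both the targets and what could be counted. They are mouse RefSeq entries (build GRCm38.p6, the assembly also called mm10), written 5′ to 3′, with the seed, bases 2 to 8, in capitals. All 6 genes were matched.

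miR-9-5p: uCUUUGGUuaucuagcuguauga

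miR-9-3p: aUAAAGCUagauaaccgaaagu

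miR-92b-3p: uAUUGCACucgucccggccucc

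miR-92b-5p: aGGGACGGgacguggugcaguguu

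miR-135a-5p: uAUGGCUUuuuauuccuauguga

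miR-135a-1-3p: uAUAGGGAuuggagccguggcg

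miR-135a-2-3p: uGUAGGGAuggaagccaugaa

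Among the 1738 mature entries of the RefSeq table, the seed of miR-9-5p (CUUUGGU) occurs in the 3 miR-9 genes and in no other. The seed of miR-92b-3p (AUUGCAC) is shared by 7 genes. The seed of miR-135a-5p (AUGGCUU) is found in both miR-135a entries. The table holds no mature entry for the 5′ arm of Mir135b. Bases 16 to 38 of the Mir135b hairpin align to miR-135a-5p with the same seed and 1 difference, U11C, counted from the 5′ end of miR-135a-5p.

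The hairpins show where loci of the same miRNA can be told apart. Capitals mark the mature arms.

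Mir9-1: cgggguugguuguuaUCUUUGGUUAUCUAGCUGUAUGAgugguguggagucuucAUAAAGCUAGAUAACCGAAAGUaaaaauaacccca

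Mir9-2: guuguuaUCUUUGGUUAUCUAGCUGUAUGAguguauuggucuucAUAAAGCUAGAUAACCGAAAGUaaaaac

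Mir9-3: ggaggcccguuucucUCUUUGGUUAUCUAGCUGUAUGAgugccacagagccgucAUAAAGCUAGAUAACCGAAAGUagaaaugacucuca

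Mir92b: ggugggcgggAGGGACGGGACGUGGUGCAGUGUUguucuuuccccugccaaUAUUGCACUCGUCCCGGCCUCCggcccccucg

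Mir135a-1: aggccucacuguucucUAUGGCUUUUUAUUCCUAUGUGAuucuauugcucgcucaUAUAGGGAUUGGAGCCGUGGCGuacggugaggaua

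Mir135a-2: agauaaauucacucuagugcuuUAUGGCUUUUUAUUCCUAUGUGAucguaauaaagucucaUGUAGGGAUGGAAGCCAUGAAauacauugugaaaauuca

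The 3 miR-9 hairpins carry both mature arms letter for letter, so a read of exactly miR-9-5p or miR-9-3p fits 3 places. The deposited counts give a read that maps to several places to no gene. By exact match, only reads that run past a mature end into the differing flank can be assigned. Whether reads with mismatches were also assigned is not given in the sources used here. Mir9-3 is told apart from the others by 1 extra base at the 5′ end of miR-9-5p or by 2 extra bases at the 3′ end of miR-9-3p. For Mir9-1, miR-9-5p needs 8 extra bases on its 5′ side or 4 on its 3′ side. miR-9-3p of Mir9-1 and of Mir9-2 needs 7 extra bases on its 5′ side or 6 on its 3′ side. The Mir9-2 entry is short and ends before its 5′ flank differs, and 4 extra bases on the 3′ side of miR-9-5p set it apart.

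The miR-135a loci share only their 5′ arm. For miR-135a-5p, 1 extra base on the 5′ side or 2 on the 3′ side set the loci apart. The 3′ arms of Mir135a-1 and Mir135a-2 differ at 6 aligned positions, so a read of either needs no extra base. Both arms of Mir92b are found at a single place among the 1005 RefSeq hairpins.

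Cut into windows of 22 bases, about the length of a mature miRNA, the hairpins differed in how much of them occurs at 1 hairpin locus only. All 62 windows of Mir92b were found at its own locus alone, as were 66 of 69 windows of Mir135a-1 (95.7%) and 76 of 79 of Mir135a-2 (96.2%). The miR-9 loci had fewer, with 60 of 69 for Mir9-3 (87.0%), 44 of 68 for Mir9-1 (64.7%) and 27 of 51 for Mir9-2 (52.9%). The shared windows lie at or beside the mature arms. This search covers hairpins only, so a window that is single here may still occur elsewhere in the genome.

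**Figure D1:**
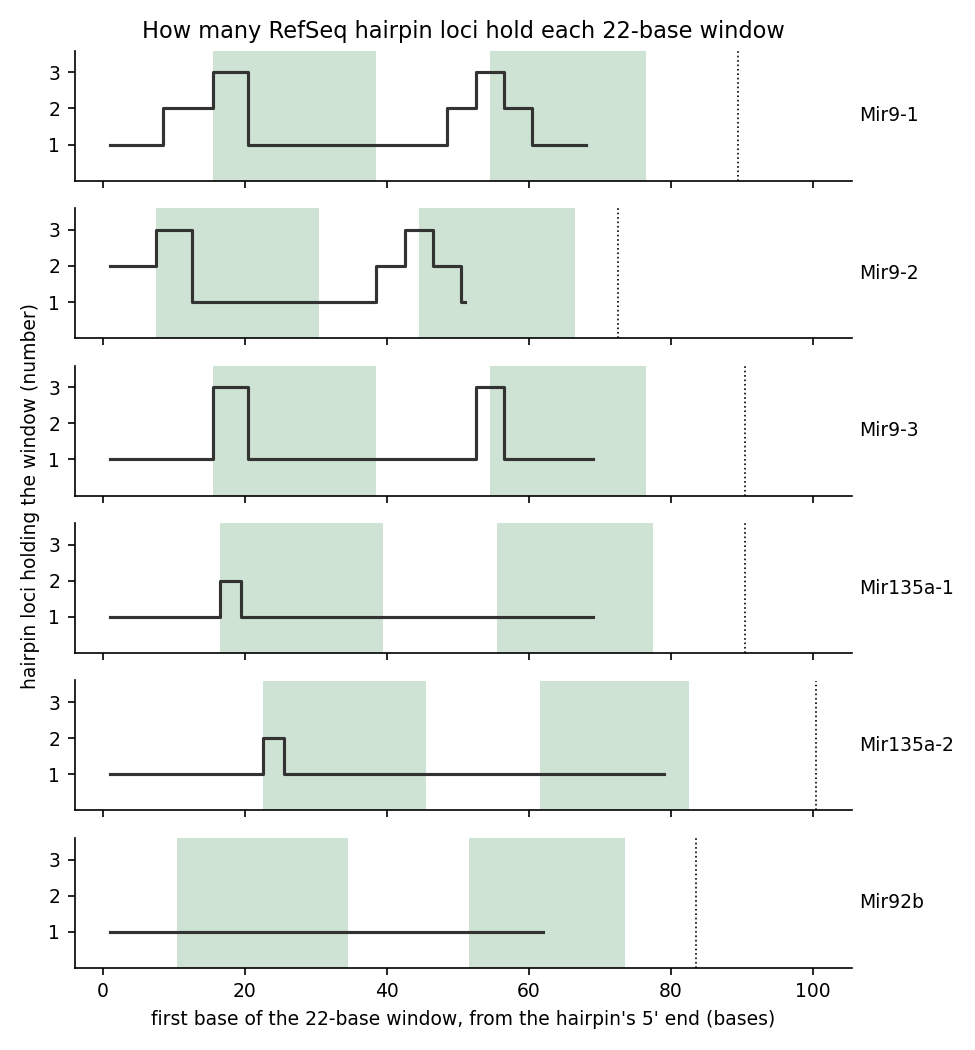
For each hairpin, the line gives the number of RefSeq hairpin loci (vertical axis) that hold the 22-base window starting at each base (horizontal axis). Green bands are the mature arms and the dotted line is the hairpin's end. Windows within the arms of the miR-9 loci reach 3 loci, the 5′ arm of the miR-135a loci reaches 2, and Mir92b stays at 1 throughout.

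Replicate 1 gave 3256070 reads on the strand of a listed gene and replicate 2 gave 3574530, and levels are counts per 1000000 of these (CPM). A sequenced miRNA gives 1 read whatever the hairpin's length, so the levels of miRNA genes were set side by side without a length correction. How evenly different miRNAs were recovered into the libraries was not measured, so levels of different miRNAs compare reads and not molecules. Reads that mapped to several places numbered 2577249 and 2780180. The 5 counted genes together held 2.03% of the gene-strand reads in replicate 1 and 1.77% in replicate 2. Mir92b alone held 95.6% and 96.1% of their counts. Intervals below are 95% exact intervals and cover counting error only.

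Mir92b was by far the most counted of the 5 genes. The counts of the others are lower limits, so this does not rank the amounts of the miRNAs. Mir92b had 63192 counts in replicate 1, or 19407 CPM, and 60939 counts in replicate 2, or 17048 CPM. The mean of 18228 ± 1668 CPM (SD, n = 2) placed it 11th of the 739 genes with a count. Its neighbours in that order were Mir93, a gene of the miR-106b cluster, with 22561 and 22185 CPM, and Mir487b of the Dlk1-Dio3 region with 14221 and 16881 CPM. Neither neighbour's range overlapped that of Mir92b. Mir92b (ENSMUSG00000076255.2) lies on the minus strand of chromosome 3, at 89227116 to 89227198, in no other annotated gene. The nearest coding gene is Mtx1, 28 bases from the hairpin. Only 1 opposite-strand read was counted at Mir92b, in replicate 2.

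Mir9-3 was the most counted of the miR-9 loci, with 1182 counts in replicate 1 (363 CPM, interval 343 to 384) and 1125 in replicate 2 (315 CPM, 297 to 334). Its mean of 339 ± 34.1 CPM (SD, n = 2) is a lower limit, since reads of the bare mature sequence were not assigned. It ranked 159th, between Mir673 (322 and 381 CPM) and Mir211 (174 and 502 CPM), whose ranges both overlap its own. Mir9-3 (ENSMUSG00000093238.1) is on the plus strand of chromosome 7, at 79505264 to 79505353, in an intron of its long non-coding host Mir9-3hg.

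Mir9-2 was nearly uncounted. It had 19 counts in each library, which is 5.84 CPM in replicate 1 (interval 3.51 to 9.11) and 5.32 CPM in replicate 2 (3.20 to 8.30). That is also a lower limit. Mir669h had the same counts and shared its rank of 357, and Mir7083 followed with 6.14 and 4.76 CPM, so the order here is within counting error. Mir9-2 (listed as ENSMUSG00000065424.1) is on the plus strand of chromosome 13, at 83738814 to 83738885, and overlaps an exon of the long non-coding gene C130071C03Rik. The nearest coding gene is Mef2c, a transcription factor gene 71734 bases away.

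Mir9-1 could be read only through another hairpin. The gene set behind the counts lists Gm25641, a hairpin on the minus strand of chromosome 3 at 88215589 to 88215696, and Mir9-1 (88215598 to 88215686, plus strand) lies inside it, in an intron of the long non-coding gene Gm3764. Gm25641 had no read on its own strand in either library. On the opposite strand, which is that of Mir9-1, it had 99 reads in replicate 1 and 140 in replicate 2, equal to 30.4 and 39.2 CPM. This reading was added after the counts were seen. It rests on the strand meaning of the count columns, which no header states and which was inferred from the values. Mir3093, which ends 340 bases before Mir9-1 in the same host, had 50.4 and 40.3 CPM. RefSeq gives Gm25641 the mature strands of miR-9b, and 0 counts of 3256070 and 3574530 allow up to 0.921 and 0.839 CPM for reads assigned to it. Opposite-strand reads, where further miR-9b entries lie, numbered 0 and 0 at Mir9-2 and 2 and 1 at Mir9-3.

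With these reads, the order of the miR-9 loci was Mir9-3, Mir9-1 and Mir9-2 in both libraries, with no overlap between them. Mir9-3 had 62.2 times the count of Mir9-2 in replicate 1 and 59.2 times in replicate 2, a log2 ratio of 5.89 ± 0.05 with 0.5 added to each count (SD, n = 2). It had 11.9 and 8.04 times the reads at Mir9-1. Mir9-3 is also the locus whose flank departs earliest from the shared arms, with 87.0% of windows at 1 locus against 64.7% and 52.9%. The part of this in the order of the counts was not tested, so the counts do not rank the activity of the 3 genes.

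How much miR-9 the tissue held is bounded only widely. Of the gene reads and several-place reads together, those assigned to miR-9 loci, Mir9-1 included, made up 0.0223% in replicate 1 and 0.0202% in replicate 2. If every several-place read were miR-9, the share would be 44.2% and 43.8%. Among these reads, the total for miR-9 lies between those limits.

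Mir135a-1 had 1140 counts in replicate 1 (350 CPM, interval 330 to 371) and 989 in replicate 2 (277 CPM, 260 to 294). Its mean of 313 ± 51.9 CPM (SD, n = 2) ranked 166th, and its range overlaps that of Mir9-3 and of both its neighbours, Mir493 (289 and 340 CPM) and Mir148b (307 and 306 CPM). Mir135a-1 (ENSMUSG00000065407.1) is on the plus strand of chromosome 9, at 106154124 to 106154213. It lies in an intron of the non-coding gene D030055H07Rik and overlaps, on the opposite strand, an exon of Glyctk, the gene of glycerate kinase. No opposite-strand read was counted there in either library.

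Mir135a-2 was the less counted of the miR-135a loci. It had 587 counts in replicate 1 (180 CPM, interval 166 to 195) and 362 in replicate 2 (101 CPM, 91.1 to 112). The mean of 141 ± 55.9 CPM (SD, n = 2) ranked 204th, between Mir103-2 (139 and 149 CPM) and Mir1981 (129 and 145 CPM), and its own range spans theirs. Mir135a-2 (ENSMUSG00000065524.1) is on the minus strand of chromosome 10, at 92072086 to 92072185, in an intron of Rmst, a long non-coding RNA of the developing brain. Its count was 0.515 times that of Mir135a-1 in replicate 1 and 0.366 times in replicate 2, a log2 ratio of −1.20 ± 0.35 with 0.5 added to each count (SD, n = 2). Nearly equal shares of the hairpins' windows occur at 1 locus, but such shares do not measure how many reads could be assigned. The part of read assignment in this ratio was not tested, so the counts do not rank the activity of these genes. Both levels are lower limits, since miR-135a-5p itself maps to both loci, and the counts do not separate the arms.

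**Figure D2:**
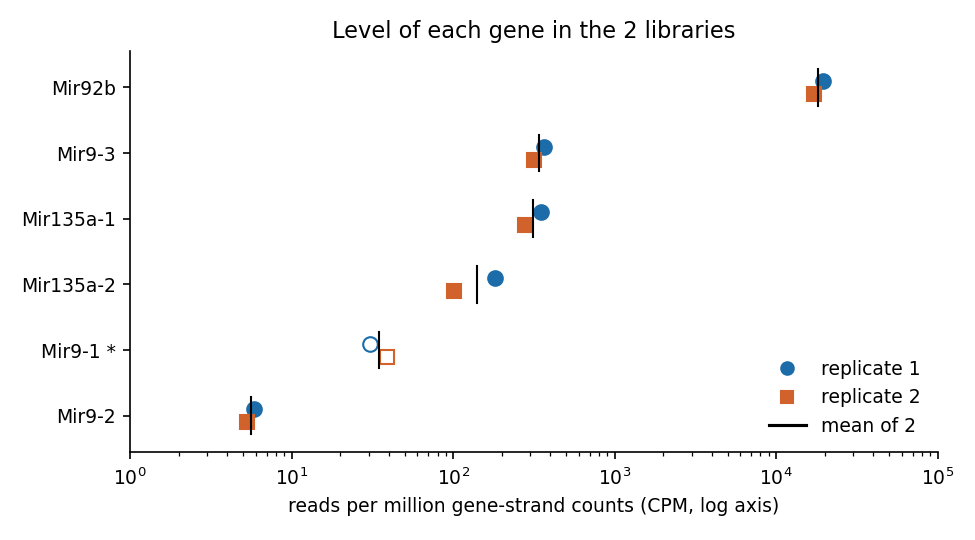
Level of each gene (vertical axis) in CPM on a log axis, with a circle for replicate 1, a square for replicate 2 and a bar at the mean of both. Mir92b stands near 18228 CPM, Mir9-3 and Mir135a-1 overlap, and the hollow symbols marked with an asterisk are plus-strand reads at Mir9-1 counted through Gm25641.

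The counted genes of the miR-25/92 seed family were led by Mir92b. Family members share the seed shown above for miR-92b-3p. The strands with this seed from the most counted genes of the family are printed here, with the seed in capitals.

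miR-92b-3p: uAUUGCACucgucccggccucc

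miR-92a-3p: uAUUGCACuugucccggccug

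miR-25-3p: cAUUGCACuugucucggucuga

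miR-363-3p: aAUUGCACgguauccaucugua

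Over the 21 bases of miR-92a-3p, miR-92b-3p differs from it by U10C and G21C, counted from the 5′ end with the base of miR-92a-3p first. Mir92b held 47.6% of the family's 132830 counts in replicate 1 (interval 47.3 to 47.8) and 43.5% of 140024 in replicate 2 (43.3 to 43.8). The share was higher in replicate 1 by Fisher's exact test (two-sided, odds ratio 1.18, p = 3.2e-100, adjusted p = 9.7e-100 over 3 families). That test treats reads as independent, so it sets these 2 libraries apart beyond counting error and says nothing of the spread between pools. Mir92-1, the miR-92a gene of the miR-17-92 cluster, held 25.7% and 26.2%, with 10486 and 10272 CPM. Mir363 held 18.5% and 21.7%, Mir92-2, the other miR-92a gene, 4.03% and 3.94%, Mir25 3.20% and 3.45%, and Mir32 0.930% and 1.18%. Mir367 of the miR-302 cluster, with 30 and 42 counts, was the lowest.

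The count of Mir92b was 1.85 times that of Mir92-1 in replicate 1 and 1.66 times in replicate 2. miR-92a-3p maps to Mir92-1 and Mir92-2 alike, so the miR-92a genes were counted as lower limits while Mir92b was not, and which of the miRNAs was more abundant cannot be told from these counts. Without Mir92-1 and Mir92-2 the share of Mir92b was 65.0%.

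In the miR-135 family the count lay mostly with Mir135b. This single-locus gene had 4229 CPM in replicate 1 and 4074 CPM in replicate 2, which is 88.9% and 91.5% of the family's counts. It had 12.1 and 14.7 times the count of Mir135a-1. Mir135a-2 held 3.79% of the family in replicate 1 (interval 3.49 to 4.10) and 2.28% in replicate 2 (2.05 to 2.52). Its share was higher in replicate 1 (Fisher's exact test, two-sided, odds ratio 1.69, p = 4.1e-15, adjusted p = 6.2e-15 over 3 families), again against counting error only. Mir135a-1 held 7.36% and 6.22%. The lower limits apply to the miR-135a genes alone, so the share of Mir135b is an upper limit. Among the 2 counted miR-9 loci Mir9-3 held 98.4% and 98.3%, with no detectable difference (Fisher's exact test, odds ratio 1.05, p = 1, adjusted p = 1).

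**Figure D3:**
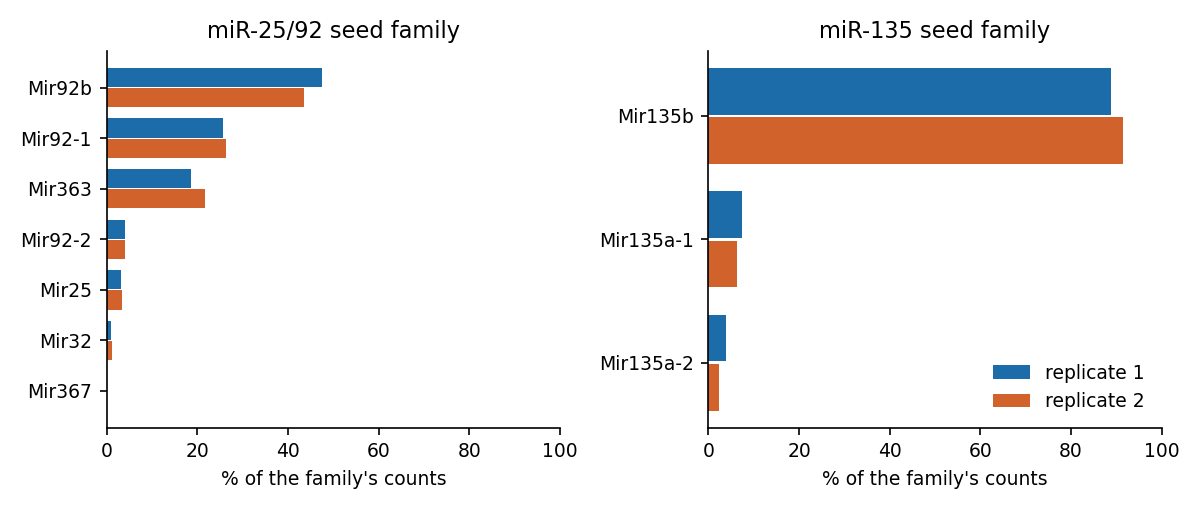
Share of the counts of the miR-25/92 seed family (left) and the miR-135 seed family (right) held by each gene, in percent, with a bar for each library. Mir92b holds 47.6% and 43.5% of its family and Mir135b holds 88.9% and 91.5% of the other.

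Between the pools, 4 of the 5 counted genes were higher in replicate 1. Of all 401 genes with a mean count of at least 10, the exact binomial test with Benjamini-Hochberg adjustment called 43.4% different, 19.7% higher and 23.7% lower in replicate 1. All 5 counted genes were among those 401, and none was lower. Their median log2 ratio, replicate 1 over replicate 2, was 0.18, against −0.03 over all tested genes. These directions are not independent evidence, since the genes were listed with earlier results of these libraries known.

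Mir135a-2 differed most, with a log2 ratio of 0.80 (1.74-fold, adjusted p = 2.3e-16, exact binomial test). The size of its ratio exceeded that of 93.3% of the tested genes. Mir135a-1 was higher by 0.31 on the log2 scale (adjusted p = 3.3e-06, exact binomial test), more than 73.6% of genes. Mir9-3 was higher by 0.18 (adjusted p = 0.0098) and Mir92b by 0.16 (adjusted p = 8.9e-80) by the same exact binomial test. These sizes are close to the median size over all tested genes, 0.17. Mir9-2 had a ratio of 0.10 and was not called (adjusted p = 0.96, exact binomial test). At 19 counts a library a difference of this size was not detectable. The plus-strand reads at Mir9-1 had a ratio of −0.39 and were not called (adjusted p = 0.072 over 17 opposite-strand entries, of which the same exact binomial test called 47.1%).

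**Figure D4:**
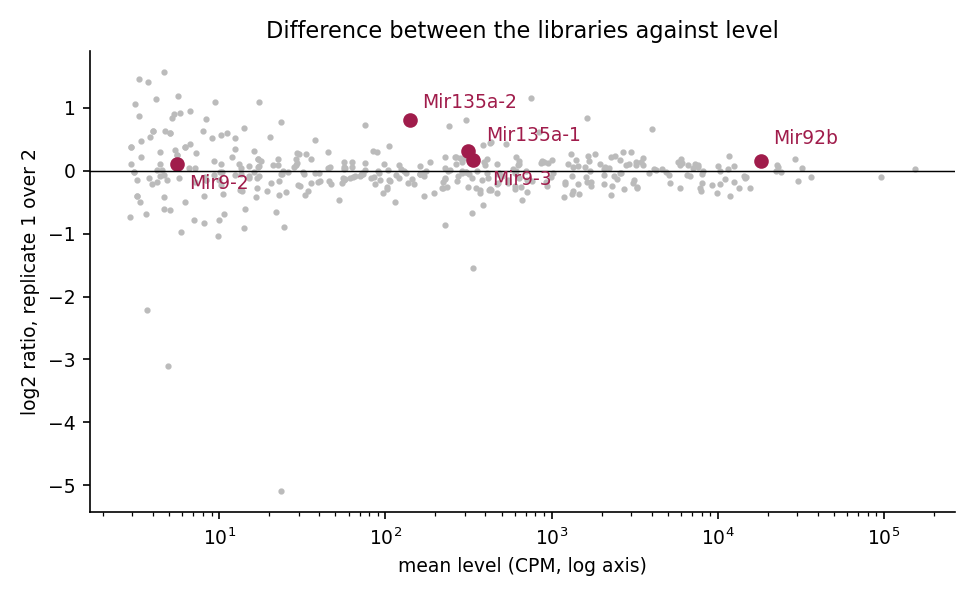
Log2 ratio of replicate 1 over replicate 2 (vertical axis) against mean CPM (horizontal log axis) for the 401 tested genes, grey, with the 5 named genes in red. Mir135a-2 stands at 0.80, while Mir92b, at the highest level of the 5, stands at 0.16 within the spread of other abundant genes.

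Relatives with the same seed did not share one direction. Mir363 was lower in replicate 1 by a log2 ratio of −0.20 (adjusted p = 8.2e-56), Mir32 by −0.31 (adjusted p = 2.7e-08) and Mir25 by −0.08 (adjusted p = 0.020), all by the exact binomial test. Mir92-1 at −0.00097, Mir92-2 at 0.06, Mir367 at −0.37 and Mir135b at 0.02 were not called.

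Over all 401 tested genes, 19.7% were called higher in replicate 1 and 23.7% lower. The median size of the log2 ratio over these genes was 0.17. Of 7 further miRNA genes known from neural progenitors, 6 were higher in replicate 1 and none lower, with a median log2 ratio of 0.16. Mir130a and Mir99a led them, with 31916 ± 1106 and 29039 ± 3050 CPM (SD, n = 2). At such high counts small differences were called, as for Mir130a with a log2 ratio of 0.04. The summed level of the 7 genes was 104604 CPM in replicate 1 and 93846 CPM in replicate 2. Of 15 neuronal genes 13 were tested, and 4 were higher and none lower, with a median of 0.0038. The neuronal sum was 2774 and 2544 CPM, led by Mir153 (1712 and 1674 CPM) and Mir137 (502 and 359 CPM).

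Among markers of other cells or regions, the few calls in the endothelial, erythroid and Hox-cluster lists were lower in replicate 1. They were 1 of 1 tested gene, 1 of 3 and 2 of 5, so they do not show a direction of a whole list. The mesenchyme list had calls both ways. Of all tested genes, 23.7% were lower in replicate 1 and 19.7% higher. Mir126a of endothelial cells had 29029 and 31930 CPM and was lower, with a log2 ratio of −0.17. The 3 erythroid genes summed to 693 and 792 CPM, with 1 lower, Mir451a (601 and 707 CPM), which held most of the sum. Mir144 (59.9 and 53.2 CPM), with a log2 ratio of 0.14, and Mir486, with −0.01, were not called. Of 6 Hox-cluster genes, known from hindbrain and trunk, 5 were tested and 2 were lower. The 6 genes summed to 245 and 309 CPM, led by Mir10a (96.1 and 133 CPM, lower) and Mir10b (88.8 and 96.5 CPM, not called). The 5 mesenchyme genes summed to 7845 and 7569 CPM with 1 higher, Mir140, and 1 lower, Mir199b (log2 ratio −0.19). Mir214, the highest of them (3840 and 3861 CPM), was not called. No gene of these lists was at 0 in both libraries. The part of such differences in tissue make-up in the ratios of the named genes was not tested. In pooled tissue, fewer cells of a type and less RNA per cell cannot be told apart. Messenger RNA markers of brain regions are not measured by this assay.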

How the data were processed

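Small RNA of 2 forebrain pools was counted per gene. The deposited files hold raw read counts, with no normalization, on assembly mm10 with genome annotation M4, per the file headers and labels. For the aligner, read trimming and read counter, names and versions were not given in the sources used here. Which count column is the strand of the gene and which the opposite strand is stated by no header and was inferred from the values: for all 1973 genes one column is the sum of the others, and the column taken as the gene strand holds nearly all of it. Counts in that column were used. Reads mapped to several places, unmapped or outside the listed genes were left out of library sizes.

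Symbols and coordinates (1-based) came from GENCODE M21, also mm10, which matched 1894 of 1973 identifiers, and sequences from RefSeq GRCm38.p6. Ratios used TMM factors of edgeR 4.0.16 (R 4.3.3) over the 401 genes whose mean count reached 10, and a pseudocount of 0.5 counts. The exact binomial test (two-sided) asked whether a gene's counts split as the scaled libraries do, with Benjamini-Hochberg adjustment over these genes at 0.05. It covers counting error and compares these 2 libraries, whose spread may be partly technical. Fisher's exact test compared family shares, with the same limit. Intervals are Clopper-Pearson for shares and exact Poisson for levels. A count of 0 allows up to 3 counts.

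Named genes are the 6 genes, their seed families, the neighbours in level, the 2 highest genes of each of 6 comparison lists and overlapping or nearest genes. The endothelial list has only 1 gene. Mir3093, Mir486 and Mir199b were added afterwards. These choices were made with earlier results of these data known. Alternatives were total-count and DESeq2 1.42.0 scaling, no filter, either-strand counts, other denominators and window lengths, and single libraries. Tests ran in scipy 1.17.1 under Python 3.11.15, tables in pandas 2.3.3, and figures in matplotlib 3.10.9.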

Additional observations from a re-analysis of the deposited data

Results flagged for a closer look

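Reads lay in a column outside the main measurement at the position of Mir9-1. The opposite-strand count of the hairpin Gm25641 was 99 in replicate 1 and 140 in replicate 2, above the 3 counts that a count of 0 allows. Gm25641 had no count on its own strand. There are no control samples to set these reads against.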

How the results depend on the processing

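The 5 counted genes kept their direction and their call under total-count scaling, DESeq2 size factors, either-strand counts, no filter on low counts and TMM over all genes, the last chosen after the data were seen. The log2 ratio ran from 0.78 to 0.83 for Mir135a-2, from 0.29 to 0.34 for Mir135a-1, from 0.13 to 0.19 for Mir92b and from 0.15 to 0.21 for Mir9-3, whose adjusted p ranged from 0.0019 to 0.028 by the exact binomial test. Genes called higher and lower numbered 93 and 84 with total-count scaling and 79 and 95 in the main analysis, so the direction with more calls depends on the scaling. With reads mapped to several places, outside the listed genes or on the opposite strand also in the denominator, mean levels were 9121 CPM for Mir92b, 170 for Mir9-3, 157 for Mir135a-1, 70.6 for Mir135a-2 and 2.79 for Mir9-2, since the denominator is larger. The share of Mir92b in its family was 65.0% without Mir92-1 and Mir92-2. The share of Mir9-3 among miR-9 loci was 89.3% with the plus-strand reads at Mir9-1, an alternative chosen after the data were seen. Window lengths of 18, 20 and 24 bases kept the order of the miR-9 loci, with 76.7% to 92.5% for Mir9-3, 55.6% to 69.7% for Mir9-1 and 41.8% to 59.2% for Mir9-2. Single libraries gave levels as printed in the report. Ratios between the libraries cannot leave a library out, and alternatives for Mir9-1 as a listed gene were not run because it has no row of its own. Shares without other loci had no remaining gene for miR-9. No paired analysis was possible because the 2 libraries form 1 group.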
